A study of Mus musculus with 14 samples.

Results

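The 34 genes described here are transcribed in response to interferons. They were chosen by symbol, as the rows of a count table for 54532 mouse gene IDs whose symbol is on a fixed list of interferon response genes, and 34 of 34 were found. Their transcripts were counted by sequencing polyadenylated RNA from the ventricles of 14 mouse hearts 1 week after an operation. Transverse aortic constriction (TAC) ties a band around the aorta, so that the heart has to pump against a higher pressure, whereas the sham operation leaves the aorta open. Ccl24 encodes eotaxin-2, a chemokine best known for drawing eosinophils. The groups were CCL24 KO mice with TAC (knockout TAC, n = 4, replicates 1, 2, 4 and 5), CCL24 KO mice with Sham (knockout sham, n = 2), Wildtype mice with TAC (wild type TAC, n = 6, replicates 1, 2, 3, 4, 6 and 7) and Wildtype mice with Sham (wild type sham, n = 2). No source used here gives the way the gene was deleted or the strain, age and sex of the mice. The labels do not say that each library came from a separate mouse, although the group sizes match the design text, so p-values measure the spread between these libraries.

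Interferons are secreted proteins that warn cells of infection or damage. Type I interferons such as interferon-beta bind the receptor made of Ifnar1 and Ifnar2, whose kinases phosphorylate Stat2. With Irf9, Stat2 acts at interferon-stimulated response elements (ISRE) in promoters. Interferon-gamma, made mainly by T and NK cells, uses another receptor and acts at gamma-activated sequences (GAS). In the heart, such genes are switched on in resident and infiltrating cells when nucleic acid from damaged cells reaches the sensors of innate immunity.

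The 34 genes were grouped by role as signalling and transcription factors (Irf1, Irf7, Irf9 and Stat2), nucleic acid sensors (Ifih1, Ddx58, Eif2ak2 and Zbp1), antiviral effectors (Isg15, Ifit1, Ifit2, Ifit3, Oas1a, Oasl1, Oasl2, Mx1, Mx2, Rsad2, Ifi27l2a, Ifi44, Xaf1, Bst2 and Rtp4), regulators (Usp18, Parp14 and Trim30a), interferon-inducible GTPases (Gbp2, Gbp3, Gbp7, Igtp, Irgm1 and Ifi47) and the immunoproteasome subunits Psmb8 and Psmb9. They lie on 14 chromosomes. On chromosome 5, which also carries Ccl24, lie Oas1a at 14.66 Mb, Oasl1 at 20.63 Mb and Oasl2 at 20.66 Mb from it.

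Promoter sequences from RefSeq (GRCm38.p6; windows of 300 bases that hold the start of the gene) were at hand for 27 of the 34 genes. Mx1, Mx2, Usp18, Parp14, Rtp4, Ifi27l2a and Zbp1 were the others. The letters GAAANNGAAA, the core of the ISRE, were searched on both strands and were present in the windows of 16 of these 27 genes (59.3%), compared with 1079 of all 27025 genes with a window (3.99%). On the strand of the gene alone, 7 of the 27 genes held them. The letters TTCNNNGAA, the core of the GAS, read the same on both strands and were present for 8 of the 27 genes (29.6%), compared with 9.55% of all genes. The promoters of 4 genes that recur in the comparisons are shown, from 200 bases before the start to the base before it, 5′ to 3′ on the strand of the gene. Capitals mark the ISRE letters, and positions count back from the start.
Isg15 (chr4:156200819-156201018, minus strand): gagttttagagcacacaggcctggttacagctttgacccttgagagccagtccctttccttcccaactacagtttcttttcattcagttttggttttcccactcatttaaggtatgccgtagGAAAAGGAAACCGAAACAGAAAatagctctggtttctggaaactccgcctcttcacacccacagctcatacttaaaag
Igtp (chr11:58199356-58199555, plus strand): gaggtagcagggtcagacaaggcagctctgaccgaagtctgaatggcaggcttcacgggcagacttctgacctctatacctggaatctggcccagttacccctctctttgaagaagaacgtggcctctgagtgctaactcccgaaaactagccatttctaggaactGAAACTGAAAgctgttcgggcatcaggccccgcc
Gbp7 (chr3:142530136-142530335, plus strand): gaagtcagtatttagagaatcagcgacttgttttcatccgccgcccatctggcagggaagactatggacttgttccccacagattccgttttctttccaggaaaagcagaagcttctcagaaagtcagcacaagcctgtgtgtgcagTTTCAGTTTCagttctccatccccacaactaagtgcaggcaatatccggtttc
Trim30a (chr7:104465194-104465393, minus strand): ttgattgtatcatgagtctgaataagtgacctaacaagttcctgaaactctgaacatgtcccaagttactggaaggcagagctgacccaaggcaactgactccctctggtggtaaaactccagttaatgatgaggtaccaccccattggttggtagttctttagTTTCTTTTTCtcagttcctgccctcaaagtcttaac

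The Isg15 promoter held 3 overlapping ISRE matches, which started at positions -78, -72 and -66 on the strand of the gene. The Igtp promoter held 1 match at -34 on the strand of the gene, next to a GAS match at -45. In Gbp7 and Trim30a the match lay on the other strand, at -53 in Gbp7 and at -36 in Trim30a, and Gbp7 also had GAS matches at -106 and -87. The ISRE and GAS matches in these 4 promoters did not overlap each other. The windows of Irf7 held no match to either set of letters. A match describes the letters and not a site in use.

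The libraries held 17072262 to 33123052 counts each. Levels are given as CPM, counts scaled to the library total with TMM factors, and 3 counts amounted to 0.0906 to 0.176 CPM. The 5 cardiomyocyte markers summed to between 29590 and 44610 CPM in each library, as heart muscle should show. Ccl24 itself, the check of the genotype labels, had 3 to 8 counts in the 6 knockout libraries, against 56 to 105 counts in 7 of the 8 wild type libraries. The library labelled wild type TAC replicate 1 had 3 Ccl24 counts, as few as a knockout library. It stayed in the group of its label, although this count goes against that label, and results that rest on it are also given with it left out. In CCL24 KO hearts, the library of knockout TAC replicate 1 stood apart from the other 3 of its group in the genes described here, and counts are likewise given without it.

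All 34 genes passed the filter on low counts, among 15876 genes tested. Mx1, an antiviral GTPase, was the scarcest, with 5 to 26 counts per library, and each of the other 33 genes had at least 16 counts in every library. Per kilobase of exon, in wild type sham hearts, Ifi27l2a was the most abundant at 33.3 ± 3.01 RPKM (SD, n = 2). Bst2, which tethers budding virus to the membrane, followed at 18.7 ± 0.987 RPKM, then Irf1 at 8.03 ± 0.0969 RPKM and Gbp2 at 6.03 ± 0.256 RPKM. At the low end of the same scale were Mx2 at 0.588 ± 0.137, Zbp1 at 0.226 ± 0.0462 and Mx1 at 0.107 ± 0.0562 RPKM. The ligands were nearly absent. Of 21 interferon genes, 19 had no count in any library, Ifnz had 6 counts and Ifng 3 counts over all 14 libraries, and a count of 0 allows a level up to that of 3 counts in a library.

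The levels of most of these genes went up and down together from library to library. Exceptions included Ifi27l2a, at 46.3 CPM in wild type TAC replicate 7, and Eif2ak2, at 22.6 CPM in knockout TAC replicate 1. Both libraries were low in most of the list. Among the 4 knockout TAC libraries, 6, 30, 34 and 32 of the 34 genes were above their own median over all libraries (replicates 1, 2, 4 and 5), and among the knockout sham libraries 14 and 23. Among the 6 wild type TAC libraries the numbers were 29, 22, 3, 8, 26 and 6 (replicates 1, 2, 3, 4, 6 and 7), and among the wild type sham libraries 2 and 3. Knockout TAC replicates 2, 4 and 5 were therefore high in nearly all of the genes, replicate 1 of that group was low, both knockout sham libraries lay between, and both wild type sham libraries were low. The median difference from the wild type sham mean, on the log2(CPM + 0.5) scale, was 0.02, 0.55, 0.70 and 0.68 in knockout TAC, 0.23 and 0.38 in knockout sham, and -0.04 to 0.42 in wild type TAC. The groups overlapped in this summary.

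**Figure D1:**
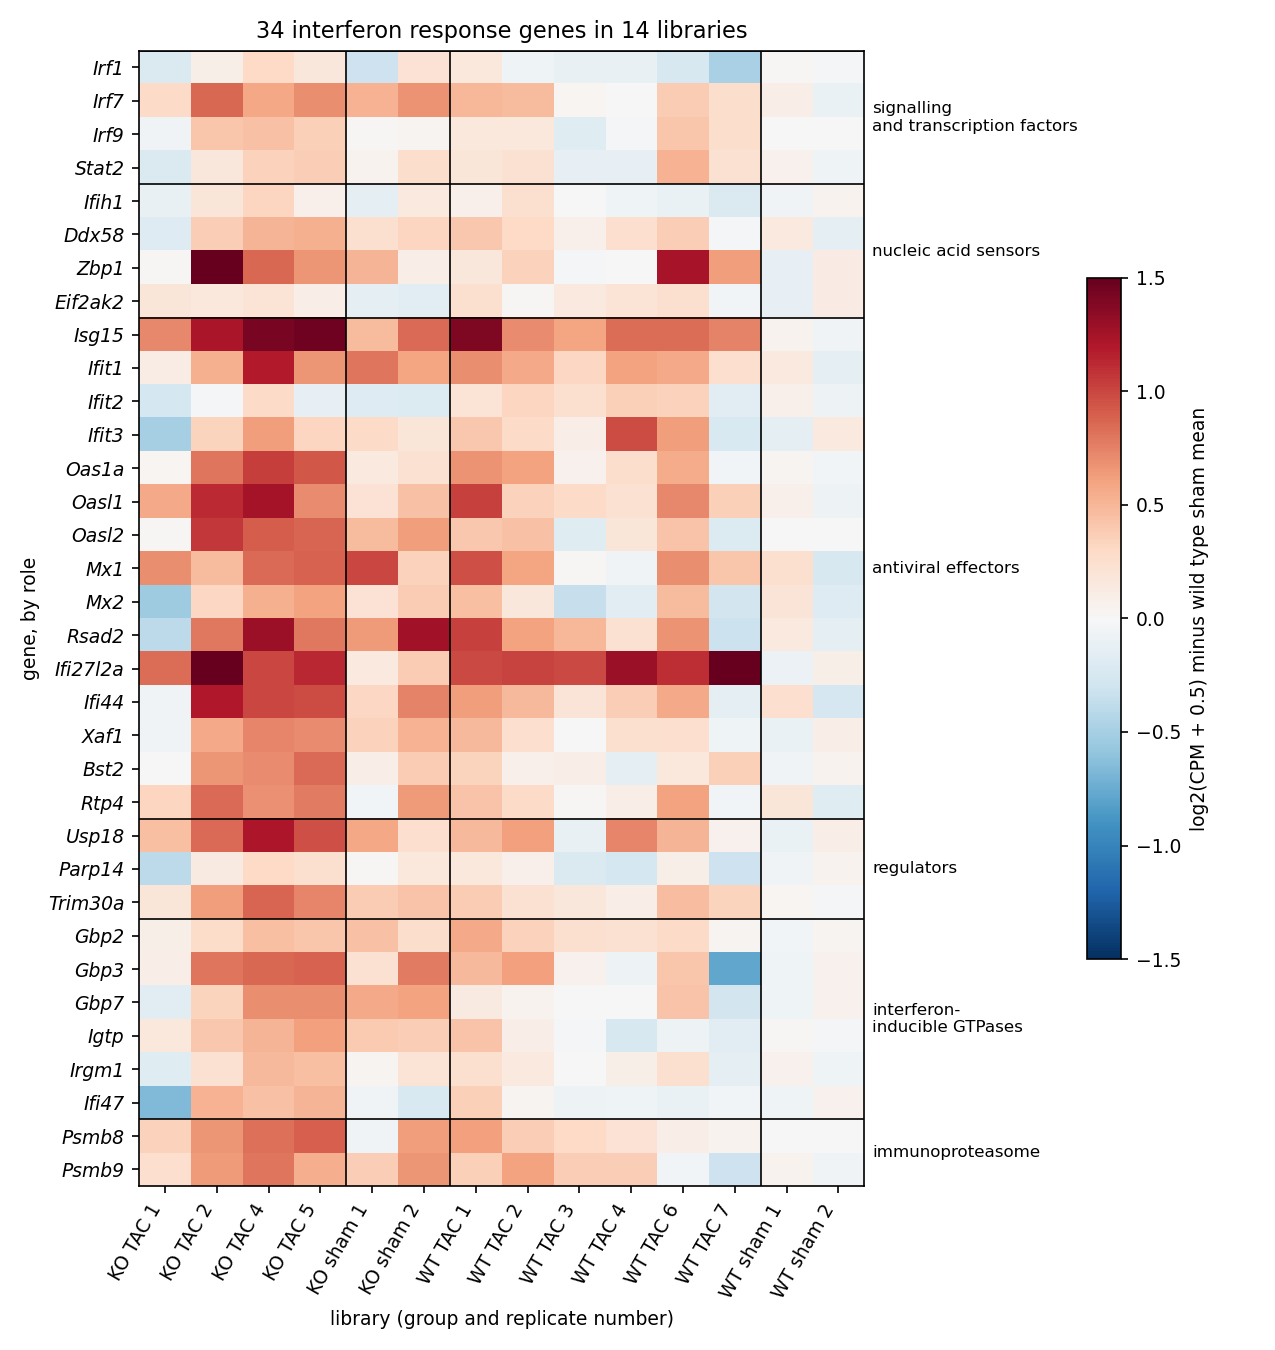
Each cell gives the log2(CPM + 0.5) of 1 gene (rows, by role) in 1 library (columns, by group and replicate) minus the wild type sham mean of that gene, with red above and blue below it on a scale cut at -1.5 and 1.5. Knockout (KO) TAC replicates 2, 4 and 5 had 30, 34 and 32 of the 34 genes above their median, whereas replicate 1 had 6, and the library labelled wild type (WT) TAC replicate 1 had 29.

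Knockout hearts were set against wild type hearts with both operations averaged, so that each operation had the same weight in either genotype; the comparisons within each operation, which follow, use the same libraries. Knockout levels were higher for 4 of the 34 genes and lower for none, namely Irf7, Trim30a, Igtp and Gbp7, by 1.31-fold to 1.40-fold (adjusted p under 0.05, edgeR's quasi-likelihood test, Benjamini-Hochberg over all genes tested). In this comparison 3.73% of all genes tested were called higher and 8.94% were called in either direction, and in the list it was 11.8%. Most of the other genes had values in the same direction without passing. The log2 fold change was above 0 for 32 of 34 genes, compared with 50.2% of all genes tested, and its median was 0.39, compared with 0.00 over all genes. At an unadjusted p under 0.05, 18 of the 34 genes were higher and 0 lower, compared with 12.5% and 14.1% of all genes. In bulk tissue, more cells of a type and more RNA per cell cannot be told apart.

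Irf7, the transcription factor that amplifies the interferon response, had 14.9, 22.4, 18.4 and 19.9 CPM in knockout TAC hearts and 17.6 and 19.6 CPM in knockout sham hearts. Wild type TAC hearts ranged over 12.1, 15.3 and 17.3 CPM (lowest, median and highest of 6), and wild type sham hearts had 13.05 and 11.2 CPM. Apart from knockout TAC replicate 1, every knockout library was above every wild type library. Irf7 averaged 18.8 ± 2.51 CPM in knockout (SD, n = 6) and 14.2 ± 2.34 CPM in wild type (SD, n = 8). Its log2 fold change was 0.48 (SE 0.117, adjusted p = 0.0220 in edgeR's quasi-likelihood test with Benjamini-Hochberg adjustment).

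Trim30a, a TRIM protein that restrains Toll-like receptor signalling in mice, had 10.1, 13.9, 16.6 and 15 CPM in knockout TAC hearts and 11.6 and 12.1 CPM in knockout sham hearts. Its wild type TAC levels were 9.50, 10.8 and 12.4 CPM (lowest, median and highest of 6), and its wild type sham levels were 9 and 8.68 CPM. Knockout TAC replicates 2, 4 and 5 lay above all wild type libraries, while the other 3 knockout libraries lay within the wild type TAC range. The difference was 0.39 on the log2 scale (SE 0.114, adjusted p = 0.0435 in edgeR's quasi-likelihood test with Benjamini-Hochberg adjustment).

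Igtp, an immunity-related GTPase also called Irgm3 that acts on the vacuoles of intracellular parasites, had 9.48, 11.4, 12.2 and 13.3 CPM in knockout TAC hearts and 11.25 and 11.1 CPM in knockout sham hearts. The wild type TAC levels were 7.12, 8.20 and 11.6 CPM (lowest, median and highest of 6), and the wild type sham levels 8.57 and 8.37 CPM. The highest of these was the library labelled wild type TAC replicate 1, and without it the 2 genotypes did not overlap, which held for 2.44% of all genes tested. The log2 fold change was 0.41 (SE 0.122, adjusted p = 0.0450 in edgeR's quasi-likelihood test with Benjamini-Hochberg adjustment). Igtp shares 8.0% of its exon bases with Irgm2 on the same strand, so that some of its reads could belong to that gene.

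Gbp7, a guanylate-binding protein, had 11.6, 16.5, 21.3 and 21.4 CPM in knockout TAC hearts and 19.5 and 20.1 CPM in knockout sham hearts. Its wild type TAC levels were 10.6, 13.25 and 17.7 CPM (lowest, median and highest of 6), and its wild type sham levels 12.4 and 13.65 CPM. Knockout TAC replicate 1 lay in the lower part of the wild type range, and the other 5 knockout libraries lay in its upper part or above it. On the log2 scale the change was 0.49 (SE 0.146, adjusted p = 0.0489 in edgeR's quasi-likelihood test with Benjamini-Hochberg adjustment). A processed pseudogene, Gm43802, covers 11.3% of its exon bases.

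**Figure D2:**
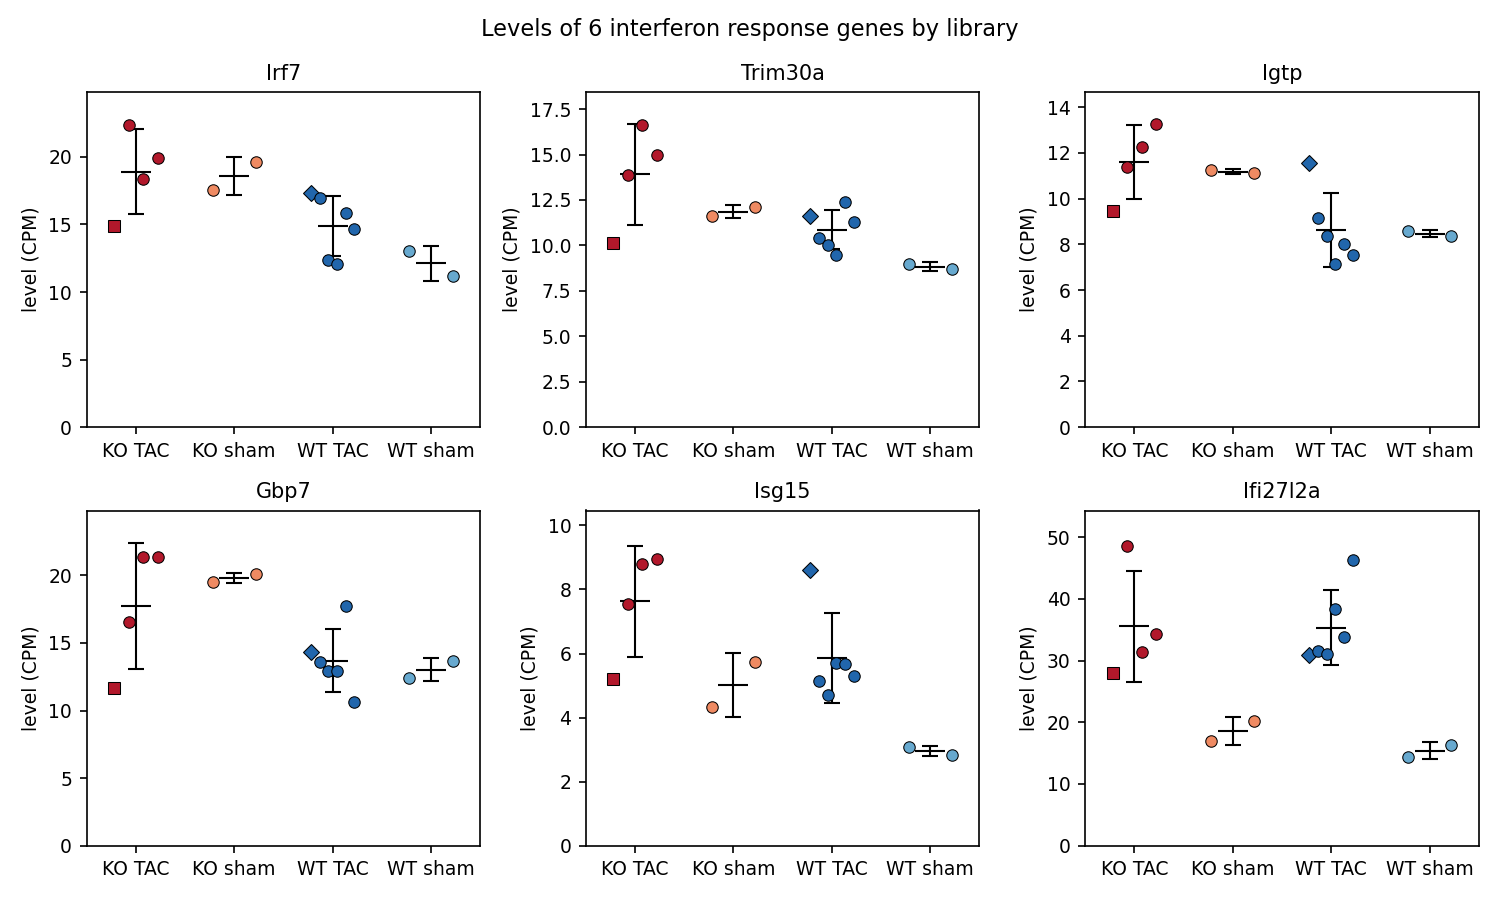
Levels in CPM of 6 genes in each library, by group (KO, knockout; WT, wild type); squares are knockout TAC replicate 1, diamonds the library labelled wild type TAC replicate 1, and bars the mean ± SD. Irf7, Trim30a, Igtp and Gbp7 were higher in knockout with the operations averaged, and Ifi27l2a was higher after TAC in either genotype.

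Other members of each role group lay close behind or near 0. Isg15, a ubiquitin-like protein that is attached to other proteins, had a log2 fold change of 0.57 (SE 0.176) and just missed the threshold (adjusted p = 0.0528 in edgeR's quasi-likelihood test), as did the oligoadenylate synthetase-like gene Oasl2 at 0.58 (SE 0.177, adjusted p = 0.0558). Among antiviral effectors the median was 0.40, and the log2 fold change ran from -0.23 for Ifit2 to 0.81 for Mx1, with 14 of 15 above 0. Ifit2, an RNA-binding inhibitor of translation, was the exception, at 17.4 ± 2.72 CPM in knockout (SD, n = 6) and 20.8 ± 2.78 CPM in wild type (SD, n = 8). It did not pass (SE 0.108, adjusted p = 0.188 in edgeR's quasi-likelihood test). The related genes Ifit1 and Ifit3 stood at 0.48 and 0.04. Among the 3 regulators, Usp18, which removes Isg15 from proteins and dampens receptor signalling, stood at 0.52 (SE 0.194), and Parp14, an ADP-ribosyltransferase, at 0.13 (SE 0.120). The 6 interferon-inducible GTPases were all above 0, from 0.06 for Ifi47 to 0.54 for Gbp3. The immunoproteasome subunits Psmb8 and Psmb9 stood at 0.38 (SE 0.134) and 0.44 (SE 0.154).

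Most genes at the head of the pathway had values near 0. Stat2, Irf9 and Irf1 had log2 fold changes of 0.09 (SE 0.124), 0.10 (SE 0.108) and 0.10 (SE 0.118), so that Irf7 stood alone among the 4 signalling and transcription factors. Of the sensors, the RNA helicases Ifih1 (MDA5) and Ddx58 (RIG-I) had 0.07 (SE 0.106) and 0.19 (SE 0.122), and the kinase Eif2ak2 (PKR) had -0.07 (SE 0.0733). Zbp1, a sensor of Z-form nucleic acid, had 0.53 but with an SE of 0.380. None of these 7 genes passed the test. Of the genes with values given for this comparison, Ifit3, Ifi47, Irf1 and Ifih1 changed sign under at least 1 alternative. The 16 genes with ISRE letters in their promoter had a median log2 fold change of 0.33, and the 11 with a window and no such letters had 0.39, given as a description.

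The call of these 4 genes depended on single libraries. Without knockout TAC replicate 1, 13 of the 34 genes were called (38.2%), in a fit that called 12.7% of all genes, and Irf7 and Oasl2 did not overlap, which 1.81% of all genes did. With wild type TAC replicate 1 (as labelled) left out, 8 were called (23.5%), compared with 13.9% of all genes. The 4 were among the called genes in both fits. Irf7 alone was called on leaving out 1 of knockout TAC replicates 2, 4 and 5 or 1 of wild type TAC replicates 2, 3 and 4. Those fits called 5.22% to 9.08% of all genes. The calls also depended on the sham libraries, and leaving out 1 of them leaves 1 library in that group. The list's median log2 fold change was then 0.399 and 0.27 without knockout sham replicates 1 and 2. It was 0.388 and 0.371 without wild type sham replicates 1 and 2.

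After TAC alone, the question is whether hearts without Ccl24 differ under pressure overload. None of the 34 genes passed the test between knockout TAC and wild type TAC hearts in edgeR's quasi-likelihood test, in a comparison where 9.34% of all genes did. An unadjusted p under 0.05 was reached by 13 genes in the higher and 1 in the lower direction, compared with 13% and 15.7% of all genes. DESeq2 called 5 genes of the list (14.7%) and 14.8% of all genes, and limma voom called 1 (2.94%) and 9.28% of all genes, so that neither share of the list was above that of all genes. In edgeR, the number at an unadjusted p under 0.05 in either direction, 14, moved to 23 without knockout TAC replicate 1, to 7 without replicate 2 or 4 of that group, to 9 without its replicate 5, and to 8 and 9 without wild type TAC replicates 3 and 4. The log2 fold change was above 0 for 32 of 34 genes, compared with 48.7% of all genes, and its median was 0.33, compared with -0.01. The 2 below 0 were Ifit2 at -0.25 (SE 0.117) and Ifit3 at -0.17 (SE 0.241), and Ifit3 stood at 0.02 without knockout TAC replicate 1.

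Igtp came closest, at 0.43 on the log2 scale (SE 0.130, adjusted p = 0.0503 in edgeR's quasi-likelihood test). Oasl2 had 10.96, 23.1, 20.7 and 20.2 CPM in knockout TAC hearts, against 9.29, 13.4 and 14.9 CPM in wild type TAC hearts (lowest, median and highest of 6). This was 0.59 on the log2 scale (SE 0.187, adjusted p = 0.0608 in the same edgeR test). Bst2 had 16.8, 27.0, 27.9 and 30.8 CPM in knockout TAC hearts, against 15.4, 18.6 and 21.8 CPM in wild type TAC hearts, which was 0.44 on the log2 scale (SE 0.141, adjusted p = 0.0612 in the same edgeR test). In both genes knockout TAC replicates 2, 4 and 5 were above every wild type TAC library and replicate 1 was within their range. The same held for Psmb8, which had 18.0, 22.5, 25.2 and 26.6 CPM in knockout TAC hearts, against 14.6, 16.9 and 21.7 CPM in wild type TAC hearts.

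No gene of the 34 had groups that did not overlap, which 2.44% of all genes showed in the higher direction. Without knockout TAC replicate 1, 12 genes did not overlap (Irf7, Oas1a, Oasl2, Usp18, Ifi44, Xaf1, Bst2, Rtp4, Gbp3, Ifi47, Psmb8 and Trim30a), compared with 7.29% of all genes, and 13 of the 34 genes were called (38.2%), compared with 13.7% of all genes. Igtp alone did not overlap once replicate 1 by label of wild type TAC was left out, compared with 6.81% of all genes. In that fit 7 genes were called (Isg15, Irf7, Oasl1, Oasl2, Bst2, Igtp and Psmb8), or 20.6% of the list, close to the 18.5% of all genes. These counts were chosen after the libraries had been seen.

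Between the sham-operated hearts, knockout sham against wild type sham, none of the 34 genes passed edgeR's quasi-likelihood test, where 0.126% of all genes did, and limma voom and DESeq2 also called 0. An unadjusted p under 0.05 was reached by 6 genes in the higher and 0 in the lower direction, compared with 5.32% and 6.01% of all genes. The number was 11 without knockout TAC replicate 1, 4 without replicate 2 of either that group or knockout sham, 4 without any 1 of wild type TAC replicates 3, 4 and 6, 3 without wild type sham replicate 1 and 0 without wild type sham replicate 2. With 2 libraries a group the standard errors were larger, at a median of 0.25 on the log2 scale. Irf7 had 17.6 and 19.6 CPM in knockout sham hearts, against 13.05 and 11.2 CPM in wild type sham hearts, which was 0.61 on the log2 scale (SE 0.198, adjusted p = 0.284 in edgeR's quasi-likelihood test). Ifit1 had 5.75 and 4.90 CPM in knockout sham hearts, against 3.455 and 2.74 CPM in wild type sham hearts, a log2 fold change of 0.78 (SE 0.304). Isg15 had 4.315 and 5.73 CPM in knockout sham hearts, against 3.07 and 2.84 CPM in wild type sham hearts, a log2 fold change of 0.76 (SE 0.302). In each of the 3 genes both knockout libraries were above both wild type libraries.

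Across the list, the log2 fold change was above 0 for 30 of 34 genes, compared with 51.1% of all genes, and its median was 0.35, compared with 0.01 over all genes. The groups did not overlap in 23 genes in the higher direction and in 2 in the lower, Eif2ak2 and Ifit2, compared with 26.6% and 26.3% of all genes. The widest values were those of the scarce gene Mx1, at 1.21 (SE 0.611), and of Rsad2, the antiviral enzyme viperin, at 1.05 (SE 0.50). When the 2 sham groups were fitted alone, Ifit1, Irf7, Oasl2, Rsad2 and Gbp7 were called, in a fit that called 7.85% of all genes.

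**Figure D3:**
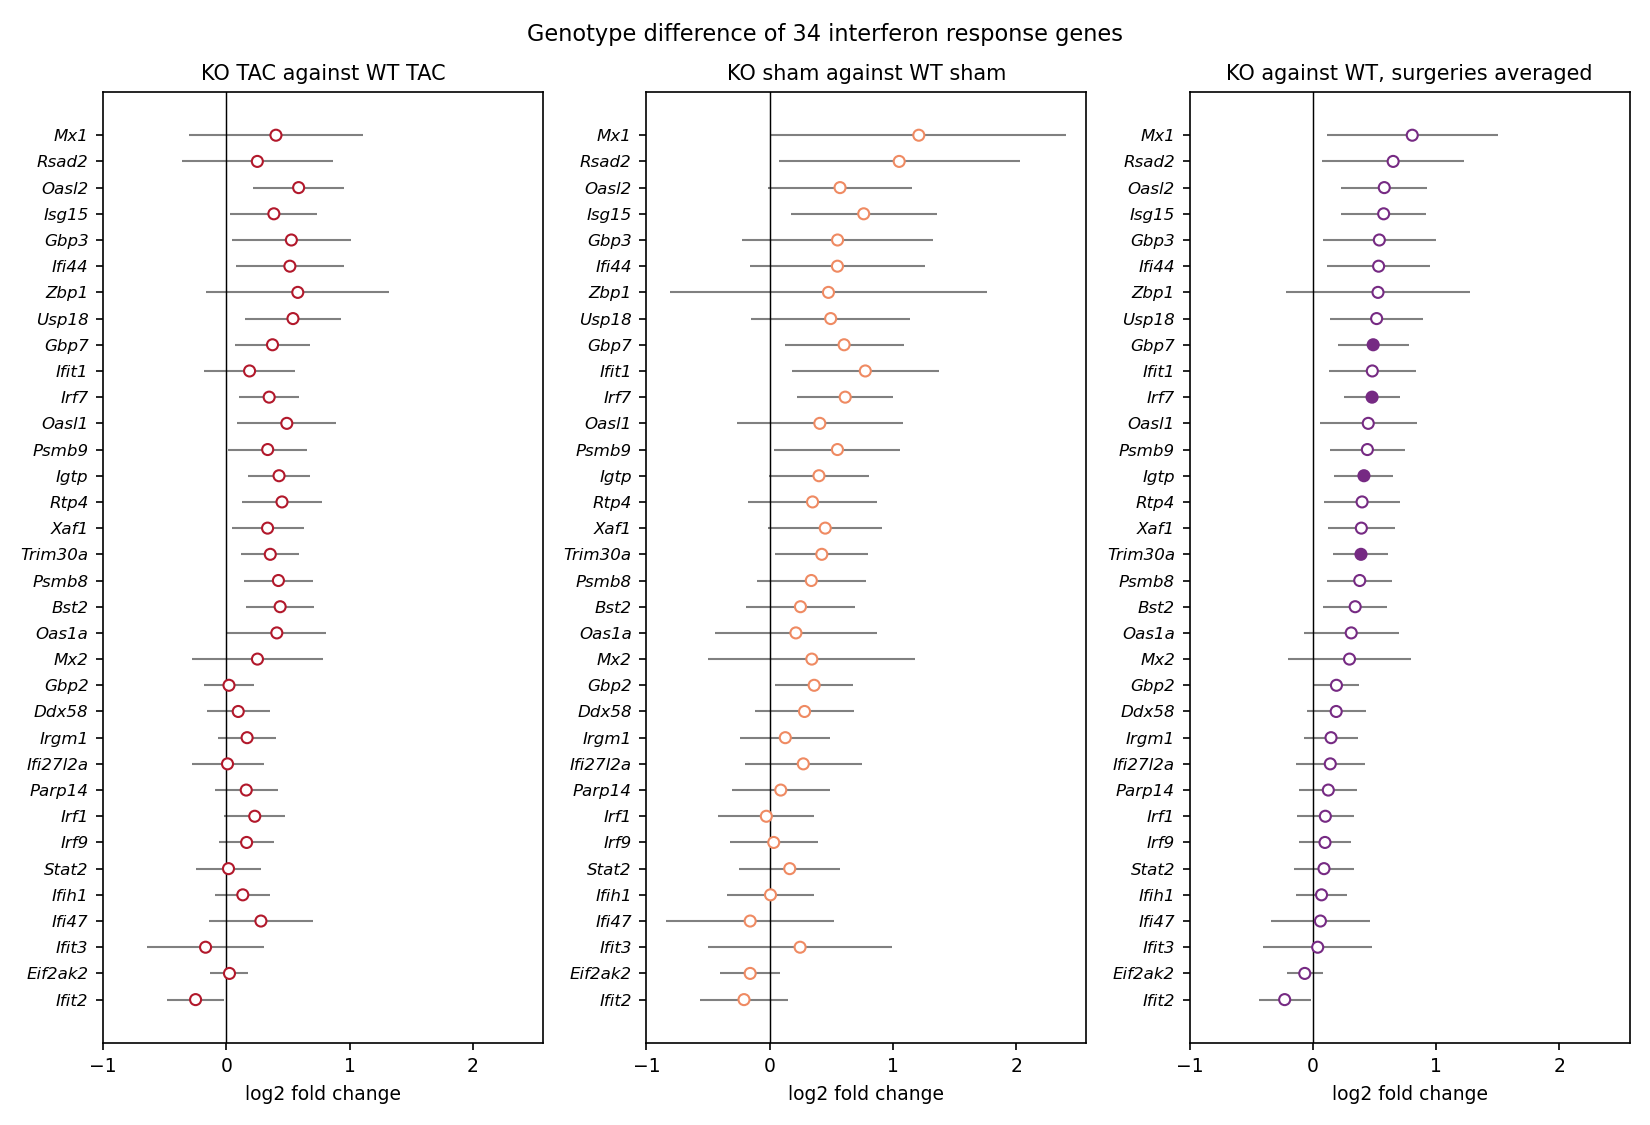
Log2 fold change of each of the 34 genes in knockout (KO) against wild type (WT) after TAC, after sham and with both operations averaged. Lines are approximate 95% intervals from the SE and the normal distribution, narrower than the test implies, and filled points passed the test. The averaged panel has 4 filled points, Gbp7, Irf7, Igtp and Trim30a, and 32, 30 and 32 of the 34 points lie above 0 in the 3 panels.

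After TAC, Ifi27l2a rose in both genotypes and Isg15 in wild type. Comparisons of TAC with sham share their libraries with the genotype comparisons and are not independent of them. In knockout hearts, 1 of the 34 genes rose after TAC, Ifi27l2a, where 4.08% of all genes were called in either direction and 2.36% higher. In wild type hearts, 2 rose, Ifi27l2a and Isg15, where 12.2% of all genes were called in either direction and 6.36% higher. No gene of the list fell in either genotype.

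Ifi27l2a, a small interferon-induced membrane protein, had 27.99, 48.6, 31.3 and 34.25 CPM in knockout TAC hearts, against 17.01 and 20.2 CPM in knockout sham hearts. It had 31.0, 32.7 and 46.3 CPM in wild type TAC hearts (lowest, median and highest of 6), against 14.4 and 16.4 CPM in wild type sham hearts. All 10 TAC libraries were above all 4 sham libraries. The log2 fold change was 0.94 in knockout (SE 0.213, adjusted p = 0.0253) and 1.20 in wild type (SE 0.208, adjusted p = 0.00773, edgeR's quasi-likelihood test with Benjamini-Hochberg adjustment), about 1.91-fold and 2.30-fold. Between the genotypes its TAC levels averaged 35.5 ± 9.07 CPM in knockout (SD, n = 4) and 35.3 ± 6.06 CPM in wild type (SD, n = 6).

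Isg15 had 5.21, 7.555, 8.79 and 8.965 CPM in knockout TAC hearts, against 4.315 and 5.73 CPM in knockout sham hearts, and its log2 fold change of 0.60 did not pass (SE 0.254, adjusted p = 0.187 in edgeR's quasi-likelihood test). In wild type hearts it had 4.69, 5.49 and 8.62 CPM after TAC (lowest, median and highest of 6), against 3.07 and 2.84 CPM after sham, with all 6 TAC libraries higher. There the log2 fold change was 0.98 (SE 0.256, adjusted p = 0.0251 in the same test), and 0.84 once the highest library, that labelled wild type TAC replicate 1, was left out (adjusted p = 0.0174, and 0.00391 to 0.238 over all alternatives).

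No other gene of the list passed the test with TAC. In knockout hearts 29 of 34 log2 fold changes were above 0 (48.2% of all genes), with a median of 0.15, compared with -0.01 over all genes. These rested on single libraries, since the median was 0.06 and 0.08 without knockout TAC replicate 4 and knockout sham replicate 1, 0.26 and 0.27 without knockout TAC replicate 1 and knockout sham replicate 2, and 23 to 32 genes were above 0. There Eif2ak2 had 0.32 (SE 0.108) and Oasl1 0.70 (SE 0.292), and these did not pass. In wild type hearts 31 of 34 were above 0 (51.3% of all genes), with a median of 0.24, compared with 0.01. Groups did not overlap in 3 genes in knockout (Ifi27l2a, Eif2ak2 and Oasl1) and in 6 in wild type (Ifi27l2a, Isg15, Ifit1, Oasl1, Trim30a and Psmb8), compared with 17% and 16.3% of all genes. The calls depended on both sham libraries of a genotype, since leaving out either leaves 1 library in that group. The median in wild type was 0.315 and 0.217 without wild type sham replicates 1 and 2. Over all alternatives Ifi27l2a stood at 0.75 to 1.06 in knockout and 1.09 to 1.295 in wild type, and Isg15 at 0.84 to 1.09 in wild type.

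**Figure D4:**
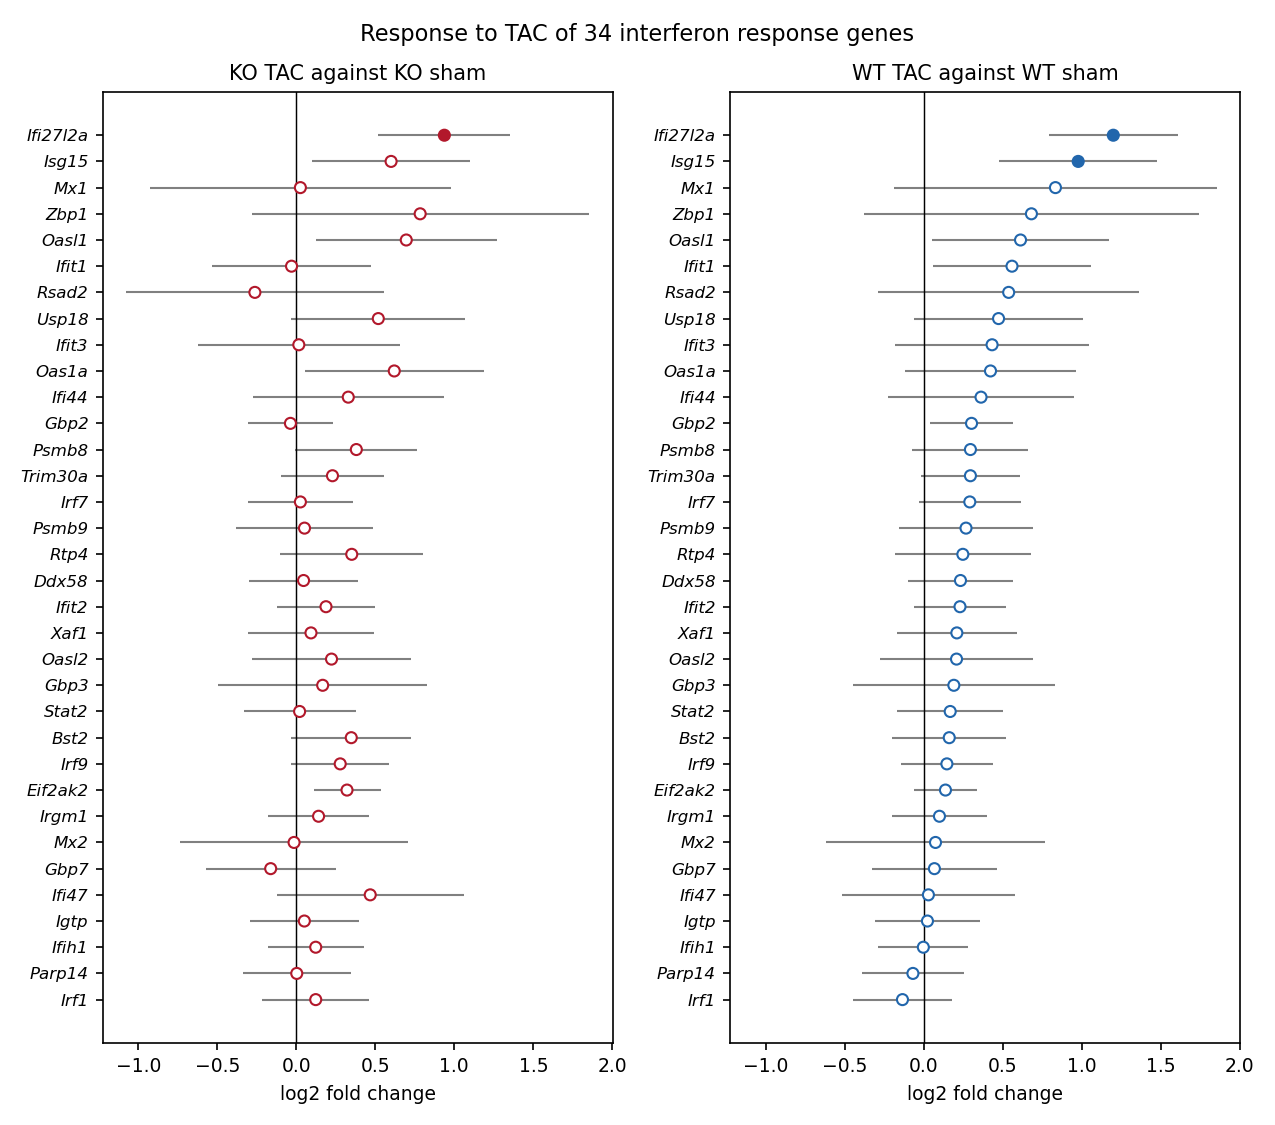
Log2 fold change of each of the 34 genes after TAC against sham in knockout (KO) and wild type (WT) hearts. Lines are approximate 95% intervals from the SE and the normal distribution, narrower than the test implies, and filled points passed the test. Ifi27l2a passed in both genotypes (0.94 and 1.20) and Isg15 in wild type (0.98).

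Whether the response to TAC differed between the genotypes was tested by the genotype by surgery interaction, the knockout response minus the wild type response. None of the 34 genes passed in edgeR's quasi-likelihood test, and 0% of all genes did. No gene of the list had an unadjusted p under 0.05, compared with 1.59% of all genes in the higher and 2.48% in the lower direction, and DESeq2 and limma voom also called 0. Of the list, 16 of 34 values were above 0, compared with 47.8% of all genes. The smallest p belonged to Gbp2, with a difference of -0.34 (approximate 95% interval -0.71 to 0.04). Then came Ifit1 with -0.59 (-1.29 to 0.11) and Rsad2 with -0.80 (-1.95 to 0.36). For Isg15 the difference was -0.38 (-1.07 to 0.31) and for Ifi27l2a -0.26 (-0.82 to 0.30). The intervals are wide, and the Isg15 responses of the genotypes were not shown to differ by this test, although it was called in wild type hearts and not in knockout hearts.

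Few genes upstream of the list were called between the genotypes. Of 16 receptor and JAK-STAT genes, 0 were higher and 1 lower in knockout TAC than in wild type TAC hearts, where 5.63% of all genes were lower. That was the type I receptor chain Ifnar1, whose level averaged 33.6 ± 1.31 CPM (SD, n = 4) with knockout and 39.4 ± 2.29 CPM (SD, n = 6) with wild type, or -0.23 on the log2 scale (SE 0.0661, adjusted p = 0.0404, edgeR's quasi-likelihood test). The median of these 16 genes was -0.18 after TAC and also with both operations averaged, where none was called. Of 18 genes that lead to interferon production, 0 were higher and 3 lower in knockout TAC than in wild type TAC hearts, the endosomal receptor Tlr7 (-0.80), its chaperone Unc93b1 (-0.40) and Irf8 (-0.41), which myeloid cells express. With operations averaged, 1 of these was lower, the adaptor Traf3 (-0.43), where 5.22% of all genes were. In wild type TAC against wild type sham hearts, 4 of them were higher and 1 lower, with Tlr7 at 1.06, Irf8 at 0.71, Unc93b1 at 0.64 and the adaptor Mavs at -0.58, and 1 receptor gene was higher, Ifngr1 at 0.43. Of all genes, 6.36% were higher there and 12.2% were called in either direction. None of either list was called in knockout TAC against knockout sham hearts.

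Of 49 other interferon-stimulated genes tested, 0 were called in the 3 genotype comparisons, with medians of 0.11 after TAC, 0.16 after sham and 0.14 averaged. In knockout TAC against knockout sham hearts 4 were higher and 2 lower, where 2.36% of all genes were higher and 4.08% were called in either direction. Slfn9 (1.69), Lgals3bp (0.52), Lgals9 (0.52) and the membrane protein Ifitm3 (0.48) were the higher ones, and Ifi205 (-1.06) and Ifi207 (-0.91), of the nuclear DNA-binding Ifi200 family, the lower ones. In wild type TAC against wild type sham hearts 7 were higher and 0 lower, where 6.36% of all genes were higher. Among them were Ifitm3 at 0.67, Lgals3bp at 0.57, Lgals9 at 0.57 and Slfn2 at 0.66. Of 28 other interferon-gamma and antigen processing genes, 1 was called higher in the averaged genotype comparison, where 3.73% of all genes were. It was B2m, the light chain of MHC class I (0.32, SE 0.0904). In CPM (mean ± SD), B2m stood at 233 ± 31.4 in the 4 knockout TAC hearts, 184 ± 31.4 in the 2 knockout sham hearts, 208 ± 15.1 in the 6 wild type TAC hearts and 133 ± 1.26 in the 2 wild type sham hearts. It was also higher in wild type TAC against wild type sham hearts (0.64), where F830016B08Rik was lower (-1.71) and 12.2% of all genes were called in either direction. Serpina3g was lower in knockout TAC than in wild type TAC hearts (-2.16, SE 0.562), where 5.63% of all genes were lower.

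Marker genes of other cell types were read in the same libraries. The 5 endothelial markers summed to 836 to 1022 CPM in knockout TAC, 845 to 1040 CPM in knockout sham, 593 to 1007 CPM in wild type TAC and 796 to 800 CPM in wild type sham hearts. All 5 had a log2 fold change above 0 in the averaged genotype comparison, with a median of 0.22 and 0 called. Library by library, their highest wild type TAC sum was in the library labelled replicate 1 and their lowest in replicate 7, which were also among the high and the low libraries of the interferon response genes. In wild type TAC replicates 1, 2, 3, 4, 6 and 7 the endothelial sums were 1007, 852, 784.5, 750, 749 and 593 CPM. The median log2 differences of the interferon response genes in the same libraries were 0.416, 0.308, 0.0466, 0.143, 0.421 and -0.0427. In knockout TAC replicates 1, 2, 4 and 5 the sums were 836, 943, 1022 and 998.5 CPM, with medians of 0.0189, 0.553, 0.7 and 0.681. Knockout sham replicates 1 and 2 had 845 and 1040 CPM, with medians of 0.234 and 0.376. Wild type sham replicates 1 and 2 had 800 and 796 CPM, with medians of 0.0142 and -0.0142. The part of the endothelial markers in the genotype difference was not tested. The share of mitochondrial counts ran over 14.9% to 19.2% in knockout TAC, 20.5% to 23.7% in knockout sham, 10.1% to 17.1% in wild type TAC and 18.5% to 18.8% in wild type sham hearts, and its part was not tested either.

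Some macrophage and fibroblast markers were lower in knockout TAC than in wild type TAC hearts. The 10 macrophage markers summed to 482 to 656 CPM in knockout TAC, 437 to 464 CPM in knockout sham, 556 to 1072 CPM in wild type TAC and 434 to 459 CPM in wild type sham hearts. In knockout TAC against wild type TAC hearts 4 of the 10 were lower and 0 higher, where 5.63% of all genes were lower. In wild type TAC against wild type sham hearts 9 were higher, where 6.36% of all genes were. Of the 5 fibroblast markers, 3 were lower in knockout TAC than in wild type TAC hearts, where 5.63% of all genes were. The 5 summed to 2309 to 2865 CPM in knockout TAC, against 3358 to 4374 CPM in wild type TAC hearts. The 6 neutrophil markers summed to 12.7 to 20.04 CPM in knockout TAC, 18.7 to 23.1 CPM in knockout sham, 9.73 to 50.4 CPM in wild type TAC and 10.5 to 11 CPM in wild type sham hearts. In knockout sham against wild type sham hearts, the comparison in which 30 of the 34 interferon response genes were above 0, all 6 were above 0 with a median log2 fold change of 1.19, and in wild type TAC against wild type sham hearts all 6 were, with a median of 1.49, and 0 were called in either. The 6 monocyte markers had 4 of the 5 tested above 0 between the sham groups, with a median of 0.70 and 0 called. In knockout TAC against wild type TAC hearts, 32 of the 34 interferon response genes were above 0. There 0 of the 6 neutrophil and 1 of the 5 monocyte markers tested were, with medians of -0.74 and -0.55 and 0 called. The 14 T and NK cell markers summed to 4.47 to 9.35 CPM in any library, and 8 of the 10 tested were above 0 in the averaged genotype comparison, with a median of 0.40, while 0 were called in any comparison. The part of these cells in the differences was not tested. Of the 4 plasmacytoid dendritic cell markers tested, 3 were above 0 in knockout TAC against wild type TAC hearts, with a median of 0.21. They include Bst2, which is one of the 34 genes, and Cox6a2, which heart muscle expresses and which was called higher (0.35). Tcf4 averaged 135.9 ± 16.2 CPM (SD) over the 4 knockout TAC hearts and 129 ± 8.64 CPM over the 6 wild type TAC hearts, whereas Siglech averaged 0.596 ± 0.398 CPM and 0.844 ± 0.434 CPM in the same groups. Ccr9 had at most 3 counts in a library.

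**Figure D5:**
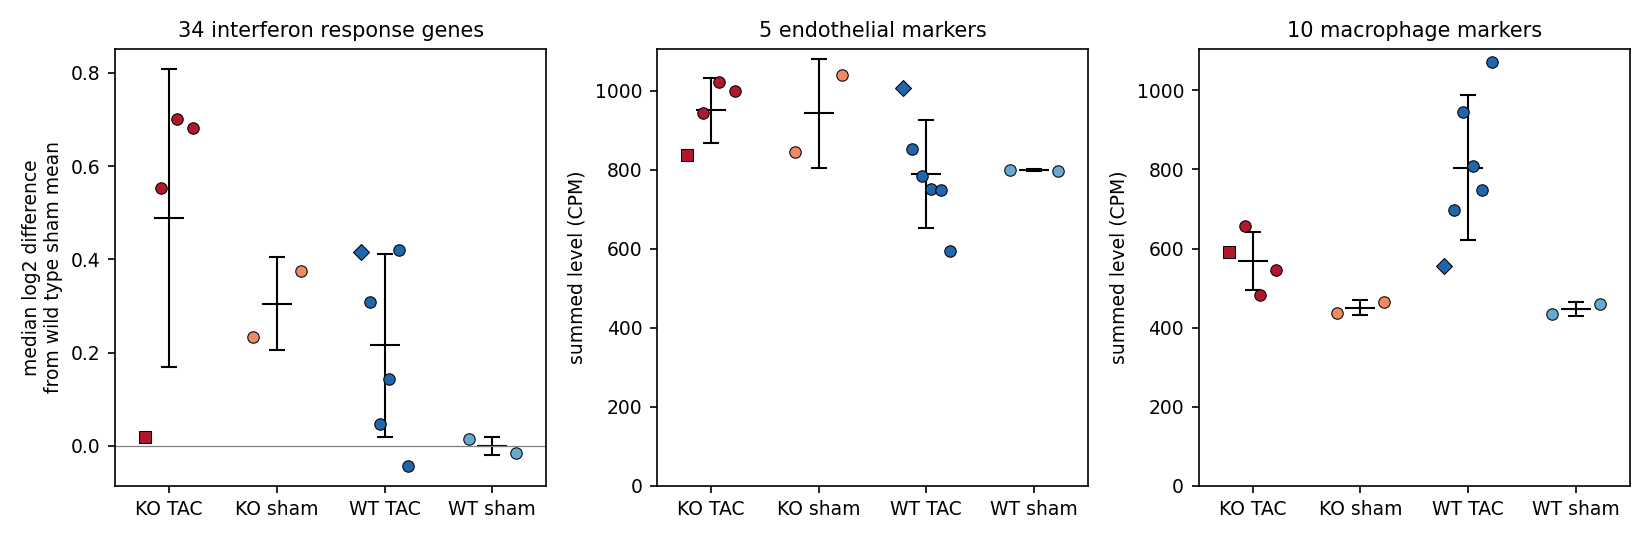
For each library by group (KO, knockout; WT, wild type), the median over the 34 genes of the log2 difference from the wild type sham mean, and the summed level in CPM of 5 endothelial and of 10 macrophage markers; squares are knockout TAC replicate 1, diamonds the library labelled wild type TAC replicate 1, and bars the mean ± SD. The macrophage sum reached 1072 CPM in wild type TAC and at most 656 CPM in knockout TAC, whereas the interferon response genes and the endothelial sum had their highest TAC libraries in knockout.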

How the data were processed

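RNA was sequenced from 14 mouse ventricle samples in 4 groups of genotype and operation. The authors deposited raw read counts per gene, whole numbers without normalization. FastQC, HISAT2 2.1.0, featureCounts and edgeR on GRCm38 are named per the submitters' processing notes. Their settings, the annotation, the use of strand and the treatment of reads with several matches are in no source used here. Reads of the 14 genes of the list that share exon bases with another gene (up to 14.7% of them, for Psmb8), and of families with near-identical copies such as the Ifit, Oas, Gbp and Trim30 genes, are therefore uncertain. Positions came from GENCODE M21.

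Counts were analysed in R 4.3.3 with edgeR 4.0.16: filterByExpr, TMM factors and glmQLFit (robust) on the 4 group means over all 14 libraries, with quasi-likelihood F tests of 6 comparisons. Benjamini-Hochberg adjustment ran over all 15876 genes tested, with a threshold of 0.05. The SE is the log2 fold change divided by the square root of F. The steps were tested on simulated counts. Alternatives were RLE scaling, no filter, limma 3.58.1 (voom), DESeq2 1.42.0, a replicate block, fits of 2 groups and leaving out each library.

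The genes, the other lists and the tests were chosen with earlier results of these data known. In each comparison every gene of the list past the threshold is named, or the 3 with the smallest p where fewer pass, and up to 4 called genes of each other list; genes beyond these were named after their values were seen. No libraries of a group agreed within sampling noise (chi-square per degree of freedom at least 4.54, the lowest in the wild type sham pair). This does not show that they came from separate mice, since separate preparations of 1 sample could also differ. Each was counted as 1 replicate. Same-numbered replicates did not deviate together (correlations of deviations -0.24 to 0.11) and were not paired. RPKM was computed from the exon bases of a gene. Counting limits cover counting error only.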

Additional observations from a re-analysis of the deposited data

Results flagged for a closer look

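In 68 groups of 4 or 6 libraries, the highest or lowest library was set against the rest of its group, and 5 values stood apart. Chance gives about 1 in 20 such groups. Gbp3 was at 12.7 CPM in knockout TAC replicate 1, against 21.02 to 22.2 CPM in the other 3 knockout TAC libraries. Ifi47 was at 1.98 CPM in the same library, against 4.82 to 5.11 CPM in the others. Isg15 was at 8.62 CPM in the library labelled wild type TAC replicate 1, against 4.69 to 5.70 CPM in the other 5 wild type TAC libraries, and Ifi47 was at 4.53 CPM there, against 3.17 to 3.53 CPM. Ifit2 was at 16.4 CPM in wild type TAC replicate 7, against 21.2 to 23.7 CPM in the others.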

How the results depend on the processing

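No gene called in a comparison changed sign there under any of the alternatives run. Other genes did, 4 to 17 of the 34 per comparison, and not all of them were near 0. In knockout sham against wild type sham, Psmb8 at 0.338 and Rtp4 at 0.348 reached -0.06 and -0.058 under 1 alternative. Among those with values given earlier, Ifit3 in knockout TAC against wild type TAC lay between -0.335 and 0.018 when a library was left out. With operations averaged, the replicate block gave -0.073 for Ifit3 and -0.05 for Ifi47, and leaving out a library gave -0.045 to 0.132 for Ifit3, -0.001 to 0.174 for Ifi47, -0.05 to 0.215 for Irf1 and -0.019 to 0.137 for Ifih1. For knockout TAC against wild type TAC, 0 genes of the list were called, 1 with RLE scaling, 1 with limma voom, 5 with DESeq2 and 0 to 13 when a library was left out, and 0 genes did not overlap in the higher direction, compared with 1 to 12 when either the library labelled wild type TAC replicate 1 or knockout TAC replicate 1 was left out, a choice made after seeing the data. For knockout sham against wild type sham, 0 were called and 5 in the fit of these 2 groups alone. With operations averaged, 4 were called, 2 without a filter, 2 with limma voom, 0 with the replicate block and 0 to 13 when a library was left out, and 0 did not overlap, compared with 1 to 2 without either of the 2 libraries named above. For wild type TAC against wild type sham, 2 were called, 1 with limma voom, 0 with the replicate block and 0 to 2 when a library was left out, and for knockout TAC against knockout sham 1 and 0 to 1. For the interaction, 16 of 34 values were above 0, compared with 9 with the replicate block and 9 to 22 when a library was left out. ISRE letters were found for 16 genes on both strands and for 7 on the strand of the gene alone. The share of all genes called moved with the setting too, over 0.283% to 18.5% in knockout TAC against wild type TAC and 0.762% to 13.9% with operations averaged. In knockout TAC against wild type TAC, RLE scaling called 9.52% of all genes, limma voom 9.28% and DESeq2 14.8%. With operations averaged, the share was 4.52% without a filter, 8.09% with limma voom and 1.54% with the replicate block. The fit of the 2 sham groups alone called 7.85%. For wild type TAC against wild type sham, limma voom called 10.1% and the replicate block 0.139%. The replicate numbers do not pair the libraries. With the block the list's median was 0.14 in knockout TAC against wild type TAC, with 28 of 34 above 0 and 2 at an unadjusted p under 0.05, and 0.29 with operations averaged, with 30 above 0 and 8 at that p. Leaving out a sham library leaves 1 library in that group, which is then assumed to vary like the other groups. The cause of these moves was not tested. With 2 sham libraries a genotype, the median SE between sham groups was 0.25 on the log2 scale.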
